A study of Rattus norvegicus with 15 samples.

Results

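A small group of genes of secretory-cell metabolism was followed across the 3 culture conditions of the study. They are the cytochrome P450 genes Cyp2f4, Cyp4b1 and Cyp2b1, the P450 reductase gene Por, the flavin monooxygenase gene Fmo2 and the carboxylesterase gene Ces1d. They were chosen by gene symbol, and all 6 were found among the 21969 genes of the deposited table. RNA was sequenced from rat tracheal epithelial cells grown for weeks at an air-liquid interface, with medium below and air above. Of the 15 libraries, 5 came from untreated control cultures, 5 from cultures given 10% CSE for 24 h, and 5 from cultures given 10% CSE with 100 µM naringenin added 4 h earlier. CSE is the labels' abbreviation and is not expanded here. Naringenin is a citrus flavanone, and no culture received it alone. Strain, age and animal are not stated in the labels, nor is it said which libraries came from separate cultures. The p-values below therefore rest on the scatter of libraries, part of which may be technical.

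P450 enzymes are heme proteins that insert oxygen into foreign compounds, and most in the endoplasmic reticulum receive their electrons from NADPH through cytochrome P450 oxidoreductase, the product of Por. Club cells, the secretory cells of the bronchial epithelium, are rich in such enzymes, which can turn inhaled compounds into reactive and sometimes toxic products, a step called bioactivation. In the rat, the Cyp2f4 product oxidises naphthalene, the Cyp4b1 product activates furans and aromatic amines, and the Cyp2b1 product is a major P450 of lung and, after phenobarbital, of liver. Fmo2 encodes the flavin monooxygenase typical of mammalian lung, which oxygenates nitrogen and sulfur atoms; several laboratory rat strains carry an allele with a truncated product. Ces1d encodes a carboxylesterase that cleaves ester bonds in drugs and lipids.

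Rat promoters are shown for Cyp2b1, the symbol of the row that changed, and for the pair with the largest ratios of highest to lowest library within groups. Whether that row is the RefSeq Cyp2b1 gene was not settled, as described below. Each run is 300 bases from the RefSeq annotation of build GRCr8, with 250 bases before the annotated start. Capitals mark GCGTG or its reverse complement CACGC, the core letters bound by the aryl hydrocarbon receptor (AhR), which senses aromatic pollutants.
Cyp2b1, chr1:90645869-90646168, plus strand: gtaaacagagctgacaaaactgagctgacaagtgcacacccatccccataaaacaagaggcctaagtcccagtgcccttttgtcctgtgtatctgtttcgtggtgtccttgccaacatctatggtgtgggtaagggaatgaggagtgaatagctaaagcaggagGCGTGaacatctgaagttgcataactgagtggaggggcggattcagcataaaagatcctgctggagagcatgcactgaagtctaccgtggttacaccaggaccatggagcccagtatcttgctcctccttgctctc
Cyp2f4, chr1:91543518-91543817, plus strand: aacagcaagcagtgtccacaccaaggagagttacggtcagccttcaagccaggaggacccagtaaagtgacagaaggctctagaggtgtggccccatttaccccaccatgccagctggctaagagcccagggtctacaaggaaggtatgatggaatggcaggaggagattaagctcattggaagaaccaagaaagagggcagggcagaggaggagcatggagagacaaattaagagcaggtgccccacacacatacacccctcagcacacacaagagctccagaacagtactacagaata
Fmo2, chr13:77777485-77777784, minus strand: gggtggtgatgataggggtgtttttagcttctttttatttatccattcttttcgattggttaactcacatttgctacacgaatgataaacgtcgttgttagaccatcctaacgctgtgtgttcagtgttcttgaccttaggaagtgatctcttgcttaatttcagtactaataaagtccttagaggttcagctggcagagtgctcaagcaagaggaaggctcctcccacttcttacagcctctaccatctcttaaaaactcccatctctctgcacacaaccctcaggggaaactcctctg
All 6 genes had a promoter in the RefSeq table. GCGTG, searched on both strands, occurred 1 time in the Cyp2b1 window, 1 time in that of Ces1d and 3 times in that of Por, and it had no match in the windows of Cyp2f4, Cyp4b1 and Fmo2. It is a common string, present in 29.7% of 33469 rat promoters of this length. The antioxidant response element letters TGACNNNGC occurred 1 time, in the Cyp4b1 window, against 12.1% of all promoters holding them. The forkhead letters TGTTTAC occurred 1 time, on the reverse strand of the Cyp2b1 window, against 3.78% of all promoters. The TATA box letters TATAAA had no match in any of the 6 windows and were present in 14.2% of all promoters. These matches are letters in a window and say nothing about binding.

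Libraries held 55.1 to 60.6 M counts (1 M is 1e6), and all 6 genes passed the filter on low counts with 15860 genes in all. Counts were as the authors deposited them. They are given below as CPM, counts per 1e6 scaled by TMM, and levels between genes are compared only in the authors' FPKM, fragments per kilobase and 1e6 fragments. The libraries fell into 3 sets that cut across the groups and were found by clustering these same counts, not from labels. Set 1 holds 2 libraries of each group, set 2 another 2 of each, and set 3 holds 1 of each. Secretory identity was checked on 12 club cell markers, of which 11 matched a gene of the table. Scgb1a1, the club cell secretoglobin, stood at 636 ± 261 CPM in control (SD, n = 5), and Bpifa1 at 75.1 ± 41.4 CPM. Sftpb and Cckar had 10 and 4 counts in all libraries together. The summed club marker level ran from 741 to 2482 CPM in control, 453 to 902 in CSE and 595 to 1024 in CSE with naringenin. In bulk RNA, fewer cells of a type and less RNA per cell cannot be told apart.

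Per length, Por was by far the most abundant of the 6 transcripts. In control its level was 83.4 ± 29.8 FPKM (SD, n = 5), and its lowest library over all groups, at 50.8 FPKM, lay above the highest library of any other gene, 27.2 FPKM for Cyp2f4 in control. Behind Por in control came Cyp2f4 at 13.6 ± 10.3 FPKM, Cyp4b1 at 13.3 ± 7.45, Ces1d at 11.6 ± 7.62, Fmo2 at 6.04 ± 3.34 and Cyp2b1 at 4.47 ± 0.584. Each of these overlapped the next in that order, and of all pairs below Por only Cyp4b1 and Cyp2b1 did not overlap in control (lowest 6.397 against highest 5.38 FPKM). In CSE the order became Por at 79.0 ± 17.8, Cyp4b1 at 15.7 ± 3.93, Cyp2b1 at 8.52 ± 1.58, Ces1d at 7.37 ± 4.36, Cyp2f4 at 4.89 ± 6.26 and Fmo2 at 3.33 ± 4.85 FPKM. There too Cyp4b1 was above Cyp2b1 in every library (lowest 11.8 against highest 10.1 FPKM), whereas Cyp2b1, Ces1d, Cyp2f4 and Fmo2 overlapped. With naringenin the means followed the same order as in CSE, from 90.4 ± 26.3 FPKM for Por and 13.6 ± 5.83 for Cyp4b1 to 8.52 ± 1.45 for Cyp2b1, 8.05 ± 5.34 for Ces1d, 7.29 ± 6.79 for Cyp2f4 and 4.95 ± 5.07 for Fmo2. Por amounted to 2.97 ± 0.934 times the summed FPKM of the 3 P450 genes in control, 2.77 ± 0.347 times in CSE and 3.19 ± 0.462 times with naringenin, and these ranges overlapped.

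**Figure D1:**
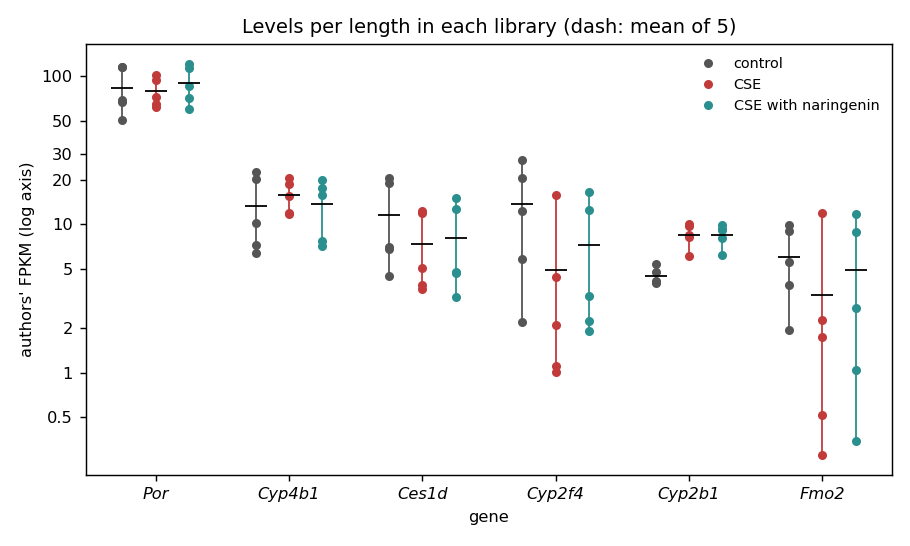
Level of each gene per library in the authors' FPKM (log axis), by group, with the mean of 5 libraries as a dash and a line over their range. Por lies above 50 FPKM in all 15 libraries, and the other 5 genes lie at or below 27.2 FPKM, with Cyp2b1 spread the least within each group.

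The first question was which of these genes differ between CSE and control cultures. Cyp2b1 rose 1.83-fold. Its CPM were 11.4, 12.99, 11.1, 14.6 and 11.5 in control libraries 1 to 5 and 21.1, 26.0, 22.3, 26.8 and 16.7 CPM in CSE libraries 1 to 5. Every CSE library was above every control library. The means were 12.3 ± 1.49 and 22.6 ± 4.06 CPM (SD, n = 5), and the log2 change was 0.87 ± 0.15 (SE, 95% interval 0.56 to 1.18, edgeR adjusted p = 8.34e-04). Cyp2b1 was the only one of the 6 genes called at an adjusted p under 0.05, against a background of 21.2% of all tested genes called in this comparison with 10.8% called higher and 10.4% lower. At an unadjusted p under 0.05 it was again the only one, and the share of all genes there was not counted. DESeq2 and limma-voom likewise called it alone of the 6, with 4058 and 3326 of 15860 genes called. It was also the only one whose groups did not overlap, where 14.6% of all genes did not overlap. A count of 1 in 6 is near the background share and is no result about the group of genes. On the authors' FPKM scale (limma, pseudocount 0.1) the split of all called genes was 2380 higher and 1306 lower, against 1711 and 1652 here, and Cyp2b1 was called on both scales.

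The identity of the Cyp2b1 row carries a limit. The deposited table places it (ENSRNOG00000033680) on chromosome 7 from 99142450 to 99181783, plus strand, in a build not given in the sources used here, with Mtss1 and Sqle as neighbours. RefSeq on GRCr8 places Cyp2b1 on chromosome 1 beside Cyp2s1. The promoter printed above is that of the RefSeq gene, and whether the counted row is the same gene was not settled. Its near-identical copy Cyp2b2 has a row of its own, at 0.972 ± 0.572 CPM in control and 1.70 ± 0.790 in CSE (log2 change 0.80 ± 0.50 SE, edgeR adjusted p = 0.277). With the counts of both rows summed, an alternative chosen after seeing the data, the log2 change was 0.87 with adjusted p = 0.00112, within a range of 7.82e-07 to 0.00295 over all alternatives.

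Cyp2f4 (ENSRNOG00000032805, chromosome 1 from 83933942 to 83947821 in the deposited table, plus strand) varied widely within groups. Its CPM were 26.9, 44.7, 4.73, 12.6 and 61.5 in control libraries 1 to 5 and 32.4, 2.36, 9.24, 2.13 and 4.52 in CSE libraries 1 to 5. CSE libraries 2 to 5 lay at or below 9.24 CPM, while CSE library 1 stood within the control range, and the groups overlapped. The mean was 30.1 ± 23.2 CPM in control and 10.1 ± 12.8 in CSE, a log2 difference of -1.57 ± 0.86 (SE, 95% interval -3.39 to 0.26) that did not pass (edgeR adjusted p = 0.211). Without CSE library 1 the difference was -2.72 and passed (adjusted p = 0.0382), and with library set as a block it was -1.91 (adjusted p = 0.00988). Without library set 3, chosen after seeing the data, it was -0.96 (adjusted p = 0.529). The adjusted p of Cyp2f4 ran from 0.00988 to 0.529 over all alternatives, so its call depended on which libraries entered and on whether the set was a term.

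Fmo2 (ENSRNOG00000003510, chromosome 13 from 80755058 to 80775264, minus strand) also varied widely. Its CPM were 12.9, 22.5, 4.41, 8.84 and 21.5 in control libraries 1 to 5 and 25.6, 1.15, 3.80, 0.624 and 5.15 in CSE libraries 1 to 5. The highest CSE library was 41.1 times the lowest, and CSE library 1 was above every control library. The mean was 14.0 CPM ± 7.87 in control and 7.27 ± 10.4 in CSE. The log2 difference, -0.94 ± 0.94 (SE, 95% interval -2.96 to 1.07), did not pass (edgeR adjusted p = 0.516), nor did it with the set block (-1.61, adjusted p = 0.0651), the lowest in a range up to 0.728 over all alternatives. Every alternative run kept the difference below 0.

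Ces1d (ENSRNOG00000015519, chromosome 19 from 15033108 to 15239821, plus strand) ran at 48.8, 52.5, 11.4, 17.3 and 18.6 CPM in control libraries 1 to 5 and at 29.7, 9.69, 28.8, 9.01 and 12.98 CPM in CSE libraries 1 to 5. The means were 29.7 ± 19.3 and 18.0 ± 10.3 CPM, the groups overlapped, and the log2 difference was -0.72 ± 0.53 (SE, 95% interval -1.84 to 0.40, edgeR adjusted p = 0.361). Within each library set, however, the CSE libraries were below the controls, by -0.79, -0.58 and -0.52 on the log2 scale in sets 1, 2 and 3. With the set as a block the difference was -0.67 and passed (adjusted p = 4.49e-04, in a range up to 0.643 over all alternatives). The row spans 206.7 kb with 3 transcripts and has Ces1a as a neighbour. Another row on the same strand, LOC501233, with 1183 counts in all, lies inside this span. Counts of the Ces1d row may include reads of other genes there, which was not tested.

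Cyp4b1 (ENSRNOG00000055078, chromosome 5 from 134508730 to 134526089, minus strand) showed no call. Its CPM were 45.4, 50.3, 14.3, 16.3 and 24.1 in control libraries 1 to 5 and 39.3, 26.0, 44.1, 25.6 and 35.03 in CSE libraries 1 to 5, so that the CSE libraries lay inside the control range. The log2 difference was 0.18 ± 0.37 (SE, 95% interval -0.60 to 0.96, edgeR adjusted p = 0.771). Por (ENSRNOG00000001442, chromosome 12 from 23998411 to 24046814, minus strand) stood at 321, 320.0, 140.0, 184 and 201 CPM in control libraries 1 to 5 and at 246, 177, 270.3, 166 and 202 CPM in CSE libraries 1 to 5. The CSE libraries lay inside the control range. Its log2 difference was -0.14 ± 0.24 (SE, 95% interval -0.65 to 0.38, edgeR adjusted p = 0.738). A change of either gene inside its interval was not resolved.

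**Figure D2:**
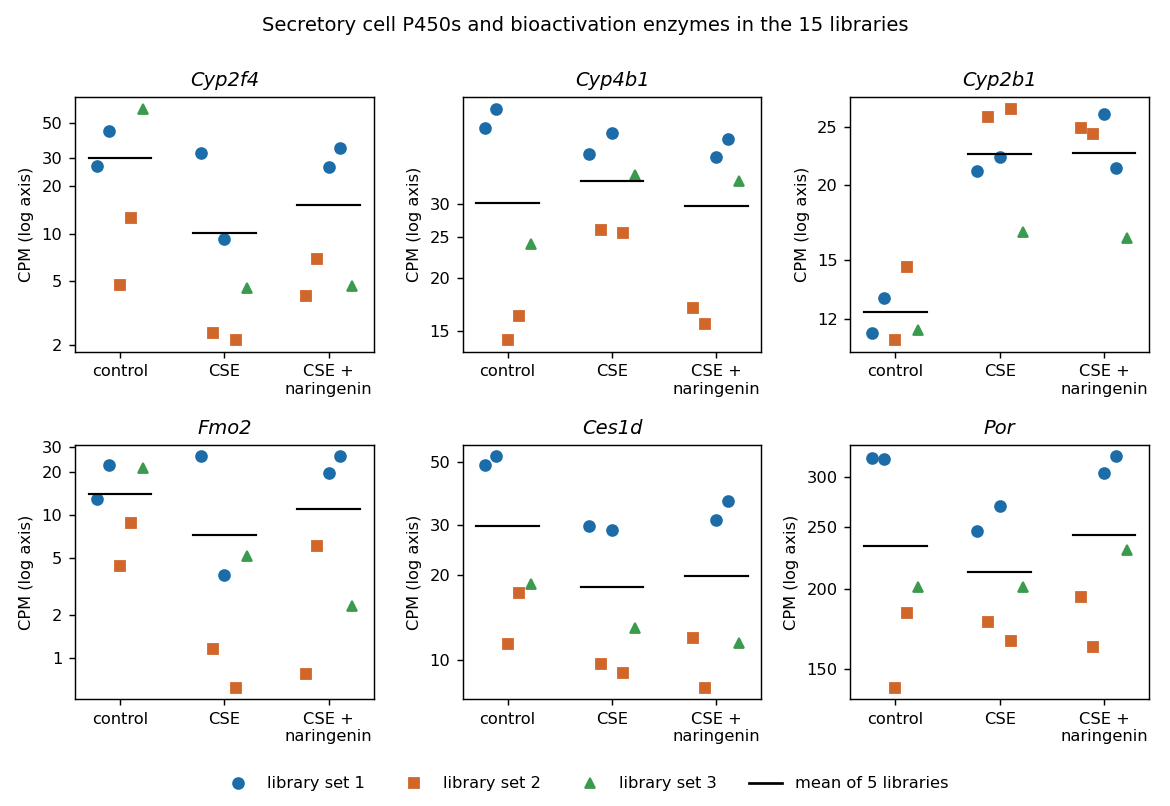
CPM of each gene (log axis, a separate range per panel) in the 15 libraries, coloured by library set, with the mean of 5 libraries as a line. Cyp2b1 separates control from both CSE groups, while in Cyp2f4, Cyp4b1, Fmo2, Ces1d and Por the set 1 libraries lie above those of set 2 in every group.

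For 5 of the 6 genes more of the variation lay between library sets than between groups. With group and set in 1 description of the variance of log2 CPM, the set took 86.9% for Por, 85.1% for Ces1d, 81.9% for Cyp4b1, 53.1% for Cyp2f4 and 48.8% for Fmo2, but 13.5% for Cyp2b1. Group took 77.7% for Cyp2b1 and between 3.27% and 24.0% for the other 5. Medians over all genes were 32.4% for set and 24.8% for group. Since the sets were found in these counts, the shares are a description. In control, Ces1d stood at 48.8 and 52.5 CPM in set 1 and at 11.4 and 17.3 in set 2. Por stood at 321 and 320.0 CPM in the set 1 controls and at 140.0 and 184 in the set 2 controls. The summed level of another marker list differed between the sets as well. The 10 matched fibroblast and smooth muscle genes summed to 227 to 232 CPM in set 1 controls and 398 to 590 in set 2 controls, and to 23.04 to 33.2 against 122 to 132 CPM in CSE. Most of this sum was 1 gene, Tagln, whose mean over all sets was 262 ± 133 CPM in control and 48.8 ± 46.2 CPM in CSE (SD, n = 5). The part of these markers in the levels of the 6 genes was not tested.

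Within sets, Cyp2b1 was higher in CSE in each of the 3, by 0.83, 1.05 and 0.54 on the log2 scale in sets 1, 2 and 3. Cyp2f4 was lower in each, by -1.001, -1.77 and -3.76, and Fmo2 by -0.78, -2.83 and -2.05, although both overlapped in set 1. Cyp4b1 differed in sign, at -0.20 in set 1 and at 0.76 and 0.54 in sets 2 and 3. Por was at -0.31, 0.10 and 0.00. With the set block 3 of the 6 genes were called, Cyp2b1 higher and Cyp2f4 and Ces1d lower, against 39.9% of all genes, 19.2% higher and 20.6% lower. The block p-values rest on sets found in the same counts, and libraries of 1 set and group may be repeats of 1 culture. Without the set 3 libraries, Cyp2b1 was at 0.93 (adjusted p = 2.44e-04).

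**Figure D3:**
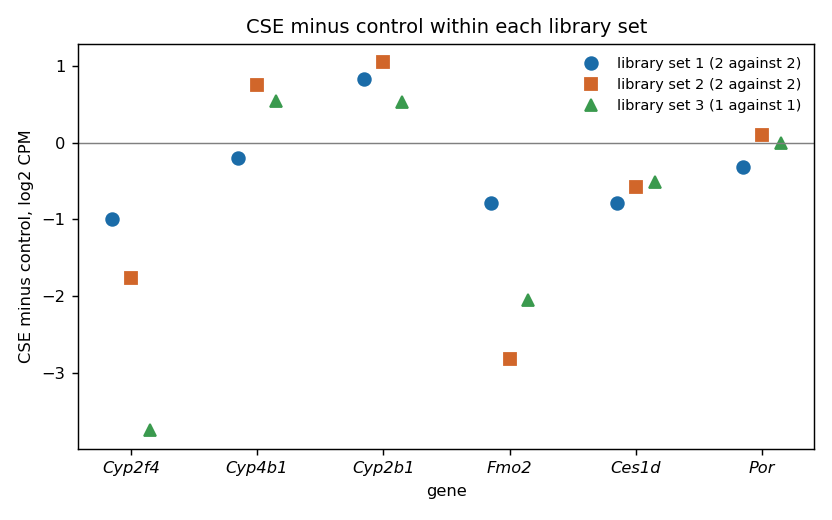
Difference in log2 CPM between CSE and control libraries of the same library set, for the 6 genes (sets 1 and 2 hold 2 libraries per group, set 3 holds 1); the line marks no difference. Cyp2b1 lies above 0 in all 3 sets, and Cyp2f4, Fmo2 and Ces1d lie below 0 in all 3.

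The second question was whether naringenin moved these genes in CSE-treated cells. None of the 6 was called by edgeR, against a background of 0.908% of all genes, split into 0.334% higher and 0.574% lower. None was at an unadjusted p under 0.05, and DESeq2 and limma-voom called none, with 609 and 173 of 15860 genes called. With the set block none was called either, where 12.7% of genes were (6.66% higher, 6.04% lower). The groups overlapped for all 6, whereas 4.77% of all genes did not overlap. Cyp2b1 stood at 24.8, 24.3, 26.3, 21.3 and 16.3 CPM in libraries 1 to 5 of CSE with naringenin, and these overlapped the CSE libraries. The mean of 22.6 ± 3.94 CPM gave a log2 difference of 0.00 ± 0.14 (SE, 95% interval -0.30 to 0.31, edgeR adjusted p = 0.998). A smaller change than this interval spans was not detectable.

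Cyp2f4 stood at 4.05, 6.89, 26.3, 34.5 and 4.66 CPM with naringenin, and Fmo2 at 0.773, 6.07, 19.8, 25.7 and 2.31. In both, the set 1 libraries 3 and 4 were high, and the groups overlapped with CSE. The log2 differences against CSE were 0.59 ± 0.84 (SE, edgeR adjusted p = 0.836) for Cyp2f4 and 0.59 ± 0.94 (adjusted p = 0.860) for Fmo2. Within sets 1, 2 and 3, Cyp2f4 was at 0.80, 1.22 and 0.04 and Fmo2 at 1.19, 1.33 and -1.14. Ces1d stood at 11.9, 7.98, 31.2, 36.4 and 11.5 CPM with naringenin, Cyp4b1 at 17.0, 15.6, 38.6, 42.6 and 34.0, and Por at 194, 162, 304, 323 and 231, again with libraries 3 and 4 highest. Against CSE, Ces1d was at 0.13 ± 0.53 (adjusted p = 0.953), Por at 0.19 ± 0.24 (adjusted p = 0.808) and Cyp4b1 at -0.20 ± 0.37 (adjusted p = 0.880).

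Set against control, cultures with CSE and naringenin had Cyp2b1 as the only call among the 6, against a background of 8.16% of genes called with 4.26% higher and 3.9% lower. Its log2 difference was 0.88 ± 0.15 (SE, edgeR adjusted p = 0.00216), and all 5 libraries were above all controls. Of all genes, 8.27% had groups that did not overlap, in either direction. Ces1d was at -0.59 ± 0.53 (adjusted p = 0.545), and with the set block at -0.58 (adjusted p = 0.00230), which made 2 of 6 called where 26.4% of genes were (12.6% higher, 13.9% lower). Its adjusted p ran from 0.00230 to 0.819 over all alternatives. Cyp2f4 was at -0.98 ± 0.84 (adjusted p = 0.525), Fmo2 at -0.36 ± 0.93 (adjusted p = 0.862), Cyp4b1 at -0.02 (adjusted p = 0.980) and Por at 0.06 (adjusted p = 0.916). This comparison shares its controls, and the previous one its CSE libraries, with the first, so their values are not independent.

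**Figure D4:**
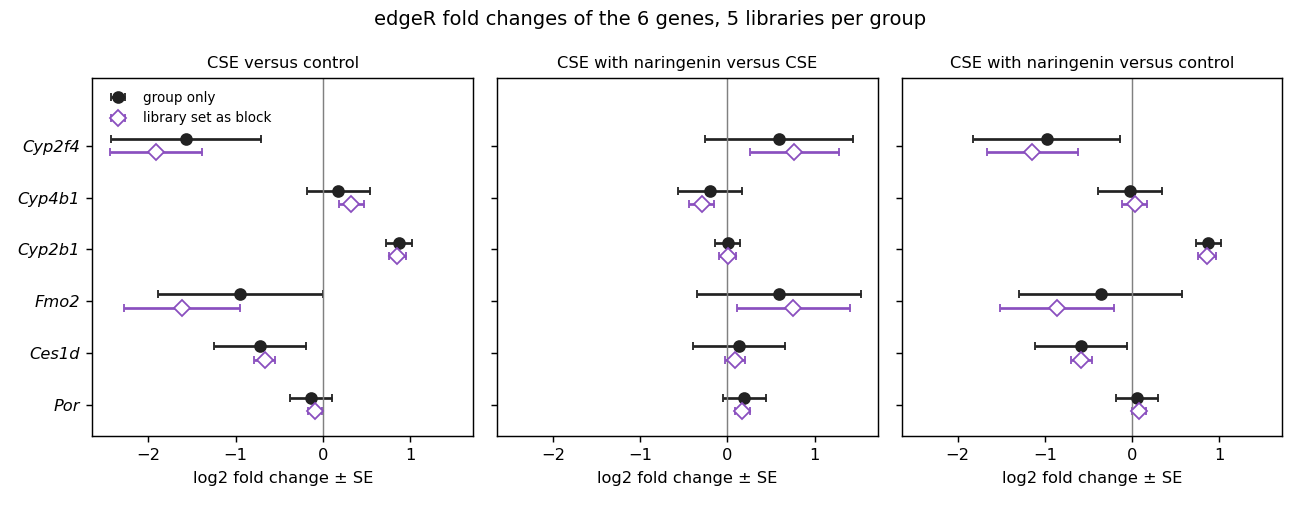
Log2 fold change of each gene in the 3 comparisons (edgeR), with its SE as a bar, for the fit with group only (filled) and with library set as a block (open). Cyp2b1 lies at 0.87 and 0.88 against control with an SE of 0.15, while the bars of Cyp2f4 and Fmo2 are several times wider.

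Genes around these enzymes were read from lists chosen with earlier results of these data known. Of 52 other P450 genes of families 2, 3 and 4, 35 matched and 22 were tested. In CSE versus control 1 rose, 1 fell and 20 did not pass, against 10.8% of all genes called higher and 10.4% lower. With the set block 3 were higher and 5 lower, where 19.2% and 20.6% of all genes were. The median log2 difference was -0.22 against -0.0026 over all genes. The riser with group only was Cyp2j4, a fatty acid epoxygenase, from 2.24 ± 0.436 to 4.23 ± 0.741 CPM (edgeR adjusted p = 0.00298). The one that fell was Cyp2s1, an airway P450 whose gene neighbours Cyp2b1 on GRCr8, from 19.4 ± 4.88 to 10.0 ± 2.12 CPM (adjusted p = 0.00393). Cyp3a9, the most abundant of the list per length, went from 97.9 ± 11.9 in control to 116 ± 24.3 in CSE without passing (adjusted p = 0.195, but 0.0343 with the set block). It was lower with naringenin, at 76.1 ± 8.16 CPM (log2 -0.61 against CSE, adjusted p = 0.0400), and was the 1 P450 of the list called in that comparison with group only. With the set block Cyp2s1 (log2 0.49, adjusted p = 0.00346) and Cyp4f6 (0.21, adjusted p = 0.0358) were called there as well, both higher with naringenin.

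Of the partners that feed electrons or heme to P450s, 5 of 17 tested genes rose in CSE, none fell and 12 did not pass, with a median of 0.04, against 10.8% of all genes called higher and 10.4% lower. With the set block 6 were higher and 3 lower, where 19.2% and 20.6% of all genes were. Pgrmc1, a heme-binding membrane partner of P450s, rose from 478 ± 69.6 to 757 ± 58.0 CPM (edgeR adjusted p = 5.84e-04). Fech, which inserts iron to complete heme, rose from 54.9 ± 9.82 to 99.4 ± 13.2 CPM (adjusted p = 7.12e-04). The heme synthesis genes Uros and Cpox rose by 0.44 and 0.26 on the log2 scale (adjusted p = 0.0370 and 0.0113). Alas1, the first and usually limiting enzyme of the pathway, was at -0.22 (adjusted p = 0.370, and 0.0410 with the set block). Cyb5a, the cytochrome b5 that can donate an electron, was at 0.21 (adjusted p = 0.428, and 0.0216 with the set block).

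Of 6 other esterase genes tested, 2 rose and 4 did not pass, with a median of 0.53, against 10.8% of all genes called higher. With the set block 3 were higher, where 19.2% of all genes were. Ces1a, next to the Ces1d row, rose from 0.734 to 1.85 CPM (adjusted p = 0.0455). Ces2h rose from 0.0984 to 1.02 CPM (adjusted p = 0.00808), and both are low transcripts. Nceh1, a cholesterol ester hydrolase and the most abundant of the list per length, stood at 102 ± 9.71 and 107 ± 10.0 CPM without passing (adjusted p = 0.652). Of 13 receptors and transcription factors tested that are known to govern P450 genes, 4 fell and 9 did not pass, with a median of -0.28, against 10.4% of all genes called lower. With the set block 7 were lower and 1 higher, where 20.6% and 19.2% of all genes were. The 4 that fell with group only were Cebpd (log2 -0.98, edgeR adjusted p = 0.0105), Nkx2-1 (-0.52, adjusted p = 0.0111), Foxa2 (-0.52, adjusted p = 0.00218) and Foxa1 (-0.31, adjusted p = 0.0485). The last 3 are factors of airway and lung identity. Cebpb, the most abundant of them per length, was at 0.03 (adjusted p = 0.912).

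Markers of the cells in the culture moved beside these genes. Of 9 club markers tested none passed in CSE versus control by edgeR with group only, nor by limma-voom. At an unadjusted p under 0.05, 2 were lower. DESeq2 called 2 lower, where it called 2187 of 15860 genes lower. With the set block 4 were lower. The median of the 9, -1.79, was the value of Cldn10, which had 129 counts in all libraries together. Among more abundant markers, Scgb1a1 was at -0.67 (edgeR adjusted p = 0.0548), Sftpd at -0.42 and Bpifa1 at -0.38. Muc5b, also abundant, was at -1.95 (adjusted p = 0.0858). Of 10 ciliated markers 6 fell, of 10 basal markers 3 fell, and of 8 fibroblast and smooth muscle markers 3 fell, against 10.4% of all genes called lower. With the set block these counts were 10, 3 and 4, where 20.6% of all genes were called lower. The basal genes called with group only were Krt14, Krt17 and Pdpn. The defining basal markers Krt5 (log2 -0.86, edgeR adjusted p = 0.452) and Tp63 (-0.98, adjusted p = 0.327) did not pass. Col1a1, Tagln and Cnn1 were the fibroblast and smooth muscle calls. Col1a1 is a defining marker of that list, whereas Myh11, the other, was at 0.60 without passing (adjusted p = 0.0979). The ciliated markers summed to 2586 to 4339 CPM in control and 2108 to 2857 CPM in CSE. The fibroblast and smooth muscle markers summed to 159 to 590 CPM in control and 23.04 to 132 CPM in CSE, with no overlap. Most of this sum was Tagln, at a mean of 262 CPM in control and 48.8 CPM in CSE. The fat cell gene Adipoq fell from 41.1 to 10.7 CPM (adjusted p = 0.00211), while Plin1 and Fabp4 had 38 and 8 counts in all. Leukocyte markers summed to at most 33.8 CPM in any library, with Ptprc at 56 counts in all. Of the alveolar type II list, Sftpc, its defining surfactant gene, reached at most 27 counts in a library, whereas the lipid transporter gene Abca3 stood at 174 CPM or more in every library; the list summed to 175 to 293 CPM in control and 188 to 281 CPM in CSE. The part of these shifts in the values of Cyp2f4, Fmo2 and Ces1d was not tested.

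**Figure D5:**
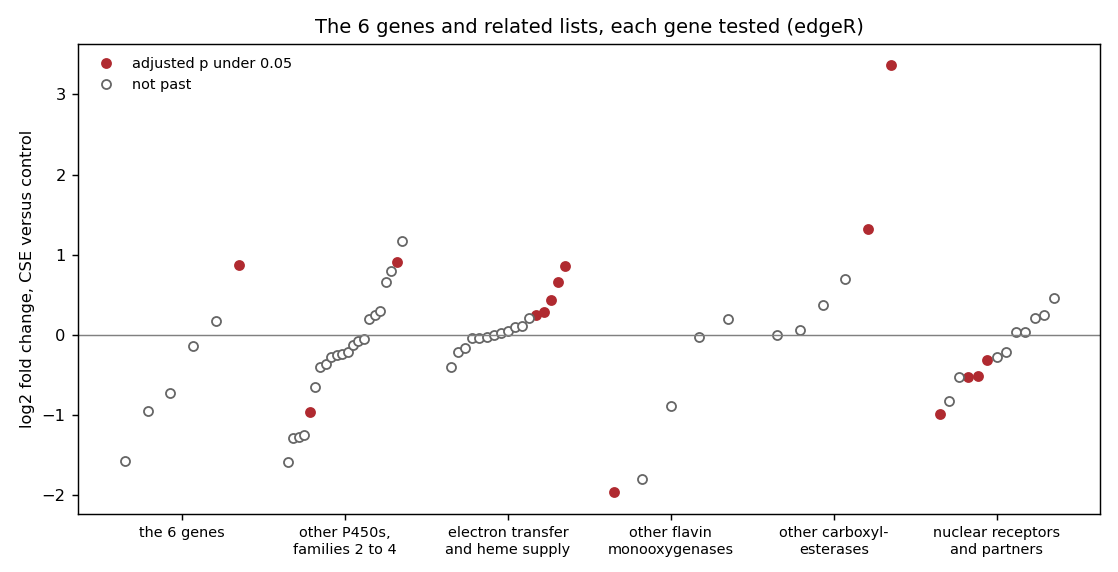
Log2 fold change, CSE versus control (edgeR), of the 6 genes and of every tested gene of the 5 related lists, each list sorted by value, with genes past an adjusted p of 0.05 filled. Electron transfer and heme genes include 5 that rose, and the receptors and factors include 4 that fell.

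Likeness of profile was described as the root mean square difference of standardised log2 CPM over the 15 libraries, where 0 is identity. Among the 6, Cyp2f4 and Fmo2 were closest at 0.364, then Ces1d and Por at 0.424 and Cyp4b1 and Por at 0.472. Cyp2b1 stood apart from the other 5, at 1.37 to 1.63. Over all tested genes, those nearest to Cyp2f4 were Lgi2 (0.226), Enpp3 (0.283) and Ttk (0.305). Those nearest to Fmo2 were Pon1 (0.237), Lgi2 (0.243) and LOC100359539 (0.257). For Ces1d they were Mmp15 (0.238), Itm2b (0.250) and Lbp (0.265), and for Por Nadk (0.215), Nasp (0.268) and Map11 (0.272). For Cyp4b1 they were Pitx1 (0.295), Gnai1 (0.326) and Polr3k (0.333). For Cyp2b1 they were Pigl (0.340), Soat2 (0.356) and Lpar6 (0.363). These values share libraries and library sets and carry no test.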

How the data were processed

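The authors deposited whole-number counts per gene and their own FPKM values for 15 libraries in 1 table. Per the submitters' processing notes, the tools included HISAT2 2.0.4 and StringTie 1.3.4d, beside cutadapt 1.9 and UMI-tools; their roles are not stated. Whether molecular identifiers were merged, whether counting used strand, and the genome build are not given in the sources used here.

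From the deposited counts, edgeR 4.0.16 in R 4.3.3 was run on the 15 libraries together with group alone as the model term (filterByExpr, TMM, quasi-likelihood F test), with Benjamini-Hochberg adjustment over 15860 genes and calls at an adjusted p under 0.05. The steps were run on simulated counts that held no library sets, so that run says nothing about p-values where such sets are present. CPM uses TMM-scaled library sizes, and log2 CPM a prior count of 2. Alternatives used DESeq2 1.42.0, limma 3.58.1 (voom, or log2 FPKM with a pseudocount of 0.1 or 1), blocks and left-out libraries. Named genes are the 6 members, up to 5 called genes per list with the largest change, the most abundant of each list by FPKM, and the 3 nearest profiles per member; Alas1, Cyb5a, Cyp2b2 and the markers were added after their values were seen. Members and lists were chosen with earlier results of these data known. Some list results are not reported here. Pairwise chi-square medians of replicates were 2.78 to 21.1, against 0.455 from sampling alone, so no library was taken as deposited in duplicate.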

Additional observations from a re-analysis of the deposited data

Results flagged for a closer look

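In 2 groups, 1 value stood far from the rest among the 18 groups of 5 libraries checked (6 genes in 3 groups), by the gap to the nearest library over the whole range, against a critical value of 0.71; chance alone passes it in about 1 group in 20. Both came from CSE library 1. Cyp2f4 stood at 32.4 CPM there, the next CSE library being at 9.24 CPM (gap over range 0.765). Fmo2 stood at 25.6 CPM there, the next being at 5.15 CPM (gap over range 0.819). The cause was not tested.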

How the results depend on the processing

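Cyp2b1 kept its direction and its call against control under every alternative run, at log2 0.79 to 0.93 in CSE and 0.79 to 0.94 in CSE with naringenin, and at 0.80 to 0.96 and 0.82 to 0.97 when each library was left out in turn. With library set as a block, 6325, 2015 and 4192 genes were called in CSE versus control, CSE with naringenin versus CSE, and CSE with naringenin versus control, against 3363, 144 and 1294. With it 3, 0 and 2 of the 6 genes were called, against 1, 0 and 1. Counts summed per set gave 3 of the 6 with 4044 genes called in CSE versus control. In CSE with naringenin versus CSE they gave 0 of the 6 with 196 genes called. In CSE with naringenin versus CSE, DESeq2 called 609 genes, no filter on low counts gave 78, and leaving out library set 3 gave 253. Against control, DESeq2 called 2064 and a fit of the 2 groups alone 807. Leaving out 1 library gave 2599 to 3515 genes and 1 to 2 of the 6 in CSE versus control, 36 to 369 and 0 in CSE with naringenin versus CSE, and 764 to 1402 and 1 against control.

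Some differences that did not pass changed sign. Cyp2b1 with naringenin versus CSE was at -0.0045 with counts summed per set and -0.0021 with Cyp2b2 added. Cyp4b1 with naringenin versus control was at 0.046 with voom, 0.016 with the replicate block, 0.029 with the set block, 0.10 summed per set, and 0.098 and 0.087 on log2 FPKM with pseudocounts of 0.1 and 1. Fmo2 there was at 0.092 without set 3. With 1 library left out, Por in CSE versus control ran from -0.27 to 0.0075. Against CSE, naringenin gave -0.087 to 0.10 for Cyp2b1, -0.21 to 0.39 for Ces1d and -0.011 to 2.03 for Fmo2. Against control it gave -0.20 to 0.24 for Cyp4b1 and -0.078 to 0.20 for Por. The cause was not tested.

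Replicate numbers did not pair the libraries throughout: 7 of 15 pairs correlated above 0.1 (range -0.39 to 0.39), and 10 of 30 matched best with their own number. Number 5 was the exception, with correlations of 0.30, 0.27 and 0.35, and its libraries are those of set 3. With the replicate block 3492, 300 and 1450 genes were called, and Cyp2b1 was at 0.86 against control. The lowest library value of the 6 genes, 0.624 CPM for Fmo2, is above the floor of 3 counts, so depth did not limit detection of any of them.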
